A study of Mus musculus with 6 samples.

Results

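Regions of open chromatin shared by the ends of neighbouring genes were examined in the R1 line of mouse embryonic stem cells. A region counted as shared when its midpoint lay within 1 kb of an annotated limit, start or end, of each of 2 or more protein-coding genes whose spans do not overlap each other, on chromosomes 1 to 19 of mm10. This gave 1111 shared regions, which were 1.63% of 68288 autosomal regions and 8.67% of the 12818 autosomal regions at a gene end. The whole table held 69689 regions. Of the shared regions, 1083 lay near 2 genes and 28 near 3, and together they touched 2150 genes. They were compared with 11160 regions that lay near a limit of exactly 1 protein-coding gene, called single regions below. A further 547 regions lay only near genes that overlap each other and were kept apart.

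The regions came from ACC-seq, in which the Tn5 transposase cuts accessible DNA and leaves sequencing adapters there. All 6 libraries were from unmodified R1 cells, 1 line, grown over mouse embryonic fibroblast feeders in serum medium with LIF and the 2i inhibitors CHIR-99021 and PD0325901, and replated before the assay to take feeder cells away. The 2 Fresh libraries came from unfixed nuclei tagmented at 37 °C, the 2 Fix libraries from cells in 1% formaldehyde for 10 min and tagmented at 55 °C, and the 2 Fix_1,6-Hex libraries from cells that also received 10% (w/v) 1,6-hexanediol, which disperses many protein condensates, for 30 s ahead of fixation and while it lasted. Tagmentation took 30 min each time. Each region carries the name of 1 of 9 clusters given by the authors, with no value per library. Sequencing depth is therefore unknown. No source used here says which accessibility pattern a cluster name stands for, and nothing below states a direction between Fresh, Fix and Fix_1,6-Hex cells. The unit of error was the autosome, so errors and p-values describe spread along the genome and not between cultures.

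A promoter is the stretch of DNA at a gene's start where RNA polymerase II and its general factors assemble. In mammals many genes lie head-to-head, with starts facing away from a common stretch that acts as a bidirectional promoter. Such promoters are usually rich in CpG, poor in TATA boxes and often bound by ETS-family factors and by NF-Y, the factor that binds the CCAAT box, and their genes tend to work in DNA repair, mitochondria, translation and chaperoning. Genes can also meet head-to-tail, the end of 1 beside the start of the next, or tail-to-tail, with ends facing each other.

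The promoters of 4 head-to-head pairs, from a shared region of each of clusters 2, 3, 4 and 8, are given as examples and were not drawn to be typical. Atm and Npat were taken by the naming rule. The other 3 pairs were chosen after values were seen. Each was the first of its cluster in list order with a gap under 200 bp whose windows both held the ETS core. Their ETS cores were thus set by the choice, while 28.4% of all head-to-head windows held one. Each window is 300 bases of RefSeq sequence on mm10 (GRCm38.p6), from 250 bases before to 50 bases after the start, 5′ to 3′ on the strand of its gene. Capitals mark matches on either strand to 6 motifs. The TATA box was searched as TATAAA, bound by the TATA-binding protein. The CCAAT box is its own spelling. The core bound by ETS-family factors was searched as CCGGAAG. The GC box, bound by SP1 and its relatives, was searched as GGGCGG. The core of NRF1, a regulator of mitochondrial genes, was searched as GCATGCGC. The core of YY1, a zinc-finger factor, was searched as AAGATGGC. Matches to different motifs may overlap.
Atm, cluster 2, chr9:53536622-53536921, minus strand: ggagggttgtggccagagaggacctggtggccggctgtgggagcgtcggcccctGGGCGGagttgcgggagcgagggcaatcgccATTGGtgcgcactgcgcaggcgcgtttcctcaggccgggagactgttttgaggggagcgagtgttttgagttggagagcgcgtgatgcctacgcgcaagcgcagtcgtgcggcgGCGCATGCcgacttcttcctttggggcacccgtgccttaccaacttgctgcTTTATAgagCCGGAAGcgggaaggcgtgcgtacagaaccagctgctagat
Npat, cluster 2, chr9:53536797-53537096, plus strand: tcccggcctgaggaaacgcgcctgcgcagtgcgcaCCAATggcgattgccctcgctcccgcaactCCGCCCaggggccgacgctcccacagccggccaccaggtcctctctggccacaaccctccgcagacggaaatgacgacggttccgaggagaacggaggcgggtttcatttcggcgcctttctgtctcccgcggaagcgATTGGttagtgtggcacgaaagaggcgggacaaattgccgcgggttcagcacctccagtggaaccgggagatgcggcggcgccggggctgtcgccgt
Mrps12, cluster 3, chr7:28741772-28742071, minus strand: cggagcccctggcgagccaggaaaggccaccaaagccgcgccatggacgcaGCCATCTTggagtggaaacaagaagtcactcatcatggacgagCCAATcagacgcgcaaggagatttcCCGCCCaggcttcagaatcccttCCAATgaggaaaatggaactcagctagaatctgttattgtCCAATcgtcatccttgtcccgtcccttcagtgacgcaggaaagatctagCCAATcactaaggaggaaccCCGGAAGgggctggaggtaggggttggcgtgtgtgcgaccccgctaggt
Sars2, cluster 3, chr7:28741718-28742017, plus strand: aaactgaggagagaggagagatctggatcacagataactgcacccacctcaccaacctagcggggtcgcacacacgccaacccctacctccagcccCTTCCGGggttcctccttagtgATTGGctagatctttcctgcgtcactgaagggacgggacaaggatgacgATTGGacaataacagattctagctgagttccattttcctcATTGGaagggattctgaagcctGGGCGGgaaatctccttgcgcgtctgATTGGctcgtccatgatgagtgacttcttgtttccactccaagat
Palb2, cluster 4, chr7:122132897-122133196, minus strand: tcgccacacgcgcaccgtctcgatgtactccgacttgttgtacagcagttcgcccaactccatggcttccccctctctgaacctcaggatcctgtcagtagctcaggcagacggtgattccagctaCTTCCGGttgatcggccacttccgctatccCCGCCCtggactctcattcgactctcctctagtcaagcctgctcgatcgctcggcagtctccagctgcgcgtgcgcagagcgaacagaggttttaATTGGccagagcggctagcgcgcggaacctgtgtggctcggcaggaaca
Dctn5, cluster 4, chr7:122132791-122133090, plus strand: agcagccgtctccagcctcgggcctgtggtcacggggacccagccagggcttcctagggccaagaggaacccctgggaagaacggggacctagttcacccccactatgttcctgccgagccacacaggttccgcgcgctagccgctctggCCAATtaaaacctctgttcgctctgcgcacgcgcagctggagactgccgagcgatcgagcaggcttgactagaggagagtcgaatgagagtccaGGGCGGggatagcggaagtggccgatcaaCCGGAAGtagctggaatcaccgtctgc
Sdhd, cluster 8, chr9:50603800-50604099, minus strand: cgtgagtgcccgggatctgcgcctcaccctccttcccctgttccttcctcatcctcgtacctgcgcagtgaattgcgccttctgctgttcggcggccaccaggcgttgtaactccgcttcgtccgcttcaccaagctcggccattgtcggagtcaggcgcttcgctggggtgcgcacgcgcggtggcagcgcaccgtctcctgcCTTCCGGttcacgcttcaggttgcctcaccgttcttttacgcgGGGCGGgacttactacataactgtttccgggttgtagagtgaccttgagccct
Timm8b, cluster 8, chr9:50603651-50603950, plus strand: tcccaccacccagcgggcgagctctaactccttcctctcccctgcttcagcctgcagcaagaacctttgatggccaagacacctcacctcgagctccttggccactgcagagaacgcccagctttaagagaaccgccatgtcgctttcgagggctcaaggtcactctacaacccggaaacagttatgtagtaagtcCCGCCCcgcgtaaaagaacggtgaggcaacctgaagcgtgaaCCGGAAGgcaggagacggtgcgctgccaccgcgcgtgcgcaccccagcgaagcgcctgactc

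The windows of a pair overlap and are read from opposite strands, so a match within the shared bases is counted in both windows. Those of Mrps12, a protein of the mitochondrial ribosome, and Sars2, the mitochondrial seryl-tRNA synthetase, shared 246 bases, with starts 147 bp apart. Each of these windows held 4 CCAAT boxes and 1 ETS core, and the Mrps12 window also held 1 YY1 core. Palb2, a partner of BRCA2 in recombination, and Dctn5, a dynactin subunit, had starts 95 bp apart and windows that shared 194 bases, each with 1 ETS core, 1 CCAAT box and 1 GC box. Sdhd, a subunit of succinate dehydrogenase, and Timm8b, an import chaperone of mitochondria, had starts 52 bp apart and windows that shared 151 bases, each with 1 ETS core and no CCAAT box. The windows of Atm, the kinase that signals DNA breaks, and Npat, the coactivator of histone genes, shared 125 bases. Atm was the exception with a TATA box, 1 match, along with 1 match each for CCAAT, ETS, GC box and NRF1. A match is a description of letters and not evidence of binding.

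Shared regions were placed in clusters 2, 3 and 4 more often than single regions were, and in clusters 1, 7 and 9 less often. The 9 shares of a group add up to the whole, so a rise in some clusters lowers others and the differences are not independent. Cluster 2 took 188 of 1111 shared regions, or 16.9%, against 6.70% of single regions. Its mean difference within autosomes was 10.81 percentage points ± 10.09 (SD, n = 19 autosomes), with the shared value higher on 16 of 19 (permutation test of the signs of the autosome differences, two-sided, Benjamini-Hochberg adjusted over 9 clusters, as are all permutation p-values of cluster shares below, permutation p = 0.00036). Cluster 3 took 19.2% against 11.7%, a difference of 7.46 ± 6.96 points, higher on 16 autosomes (permutation p = 0.000375). Cluster 4 took 16.3% against 10.9%, a difference of 5.72 ± 6.26 points, higher on 14 (permutation p = 0.00036). Together these 3 clusters held 52.4% of shared regions (exact 95% binomial interval 49.4 to 55.4), 29.4% of single regions and 9.48% of all autosomal regions.

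Clusters 1, 7 and 9 together held 18.2% of shared and 38.2% of single regions. Cluster 1 held 11.4% of shared and 21.7% of single regions, lower on all 19 autosomes by a mean of -10.98 ± 4.74 points (permutation p = 9e-05). Cluster 9 held 4.23% against 10.8%, lower on all 19 by -6.95 ± 2.68 points (permutation p = 9e-05). Cluster 7 held 2.52% against 5.72%, a difference of -3.39 ± 2.51 points, lower on 17 of 19 (permutation p = 0.00036). Clusters 5, 6 and 8 did not pass. Their shares were 3.42% against 4.18% (difference -0.769 ± 2.89 points, permutation p = 0.295), 4.68% against 6.16% (-1.10 ± 2.49, permutation p = 0.0882) and 21.3% against 22.1% (-0.790 ± 8.20, permutation p = 0.685). Cluster 8 was nevertheless the commonest cluster of shared regions, with 237 members.

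Spread between autosomes was wide for shared regions, which number 12 on chromosome 18 and 112 on chromosome 7, and narrow for single regions. The cluster 2 share of shared regions ran from 0% on chromosome 18, through a median of 15.6%, to 37.2% on chromosome 1, where 16 of 43 were in cluster 2, while for single regions it stayed between 4.22% and 8.26%. On chromosome 1 no shared region was in cluster 1, and on chromosome 15 that share reached 20.0%. For cluster 8 the shared regions ranged from 4.55% on chromosome 13 to 31.6% on chromosome 8. Width moved with these shares, as given below. When shared and single regions were compared within deciles of width, all 6 differences kept their sign, but those of clusters 4, 7 and 9 came down to 3.03, -1.24 and -2.52 points (Mantel-Haenszel differences over deciles). Calls held while sizes moved in other settings: with a window of 2.5 kb the differences of clusters 1, 2 and 3 were -6.58, 5.83 and 4.65 points, with 1 region per 50 kb that of cluster 4 was 9.50, and with all annotated genes those of clusters 1, 7 and 9 were -6.87, -5.62 and -11.00.

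**Figure D1:**
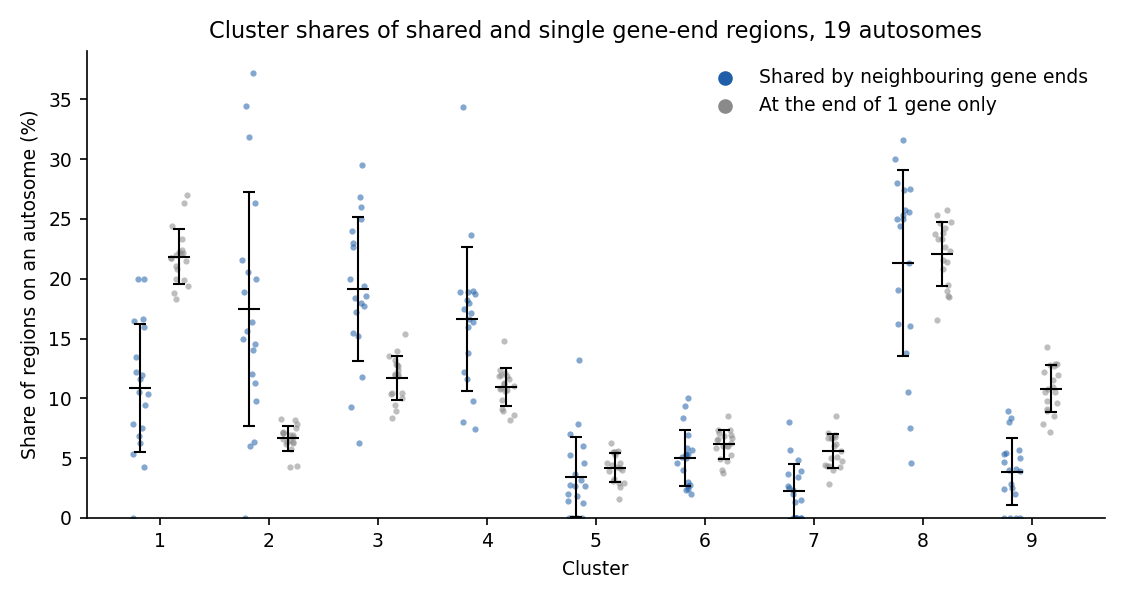
Share of regions in each of the 9 clusters (vertical axis, percent of the regions of an autosome), for shared regions in blue and single regions in grey. Each point is 1 of 19 autosomes, and the bars give the mean and SD over autosomes. The shared points stand higher in clusters 2, 3 and 4 and lower in clusters 1, 7 and 9, and scatter more, from 0% to 37.2% in cluster 2.

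Orientation was read from RefSeq strands, which matched 16457 of 20665 autosomal protein-coding genes (79.6%). Of the 1111 shared regions, 519 (46.7%) lay between or over head-to-head starts, 257 (23.1%) were head-to-tail, 56 (5.04%) were tail-to-tail, and 279 (25.1%) had a gene whose strand was not matched. The excess of clusters 2, 3 and 4 sat with the head-to-head regions, of which 67.4% were in these clusters (95% interval 63.2 to 71.5). Head-to-tail regions had 38.1% there (32.2 to 44.4) and tail-to-tail regions 3.57% (0.435 to 12.3). Single regions at a gene start had 35.5%, and single regions at a gene end had 3.82%.

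Compared with the 7533 single regions at a start, on the 18 autosomes with matched strands, head-to-head regions differed in 8 of 9 clusters. Because the shares of a group add up to the whole, these 8 calls are not separate results. No share was compared with clusters 2, 3 and 4 set aside. Cluster 2 held 24.3% of head-to-head regions against 8.24% of single starts, a difference of 15.9 ± 12 points (SD), higher on 16 of 18 autosomes (permutation p = 0.00015). Cluster 3 held 23.1% against 14.1% (difference 8.70 ± 9.64 points, permutation p = 0.00211) and cluster 4 held 20.0% against 13.2% (7.71 ± 9.01 points, permutation p = 0.00106). Cluster 1 was lower on all 18 autosomes, 4.82% against 19.5% (-15.0 ± 4.61 points, permutation p = 9e-05), and cluster 9 was lower on 17, 1.16% against 7.53% (-6.21 ± 2.90 points, permutation p = 0.000135). Cluster 8 held 18.7% against 24.2% (-5.66 ± 7.68 points, permutation p = 0.00586), and clusters 6 and 7 were lower by -2.45 points each (permutation p = 0.00191 and 0.00146). Cluster 5 did not pass, with 3.85% against 4.26% (permutation p = 0.498).

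Head-to-tail regions, where 1 gene starts beside the end of another, were set against the same single starts. In this comparison none of the 9 clusters passed, and 1 of them, cluster 7, had an unadjusted p under 0.05 (permutation p = 0.355). The differences for clusters 2, 3 and 4 were 1.97 ± 8.30, 0.592 ± 8.93 and 0.465 ± 12.5 points (SD, 18 autosomes), so shifts of several points in either direction remain within the spread. Tested directly, head-to-head exceeded head-to-tail regions in cluster 2 by 13.9 ± 11.1 points (permutation p = 0.00072) and in cluster 3 by 8.11 ± 11.4 points (permutation p = 0.0235), and was lower in cluster 1 by -13.1 ± 12.4 points (permutation p = 0.00216). The cluster 4 difference of 7.25 ± 15.2 points did not pass (permutation p = 0.109).

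Tail-to-tail regions were few and lay mostly in clusters 1, 7 and 9, as did single regions at a gene end. Of 56, 41 (73.2%) were in clusters 1, 7 and 9, against 71.3% of 1258 single regions at a gene end. Cluster 9 alone took 15 and cluster 1 took 17. Of the 9 clusters only cluster 4 passed against single ends (permutation p = 0.0365, 15 autosomes), with 0 of 56 tail-to-tail regions, which allows a share of up to 5.36%, against 1.51% of single ends, so that the single value lies under this limit. With a count of 0 no autosome could be higher. The call therefore rests on the 9 autosomes where single ends had a cluster 4 region, and it is not read as a difference.

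**Figure D2:**
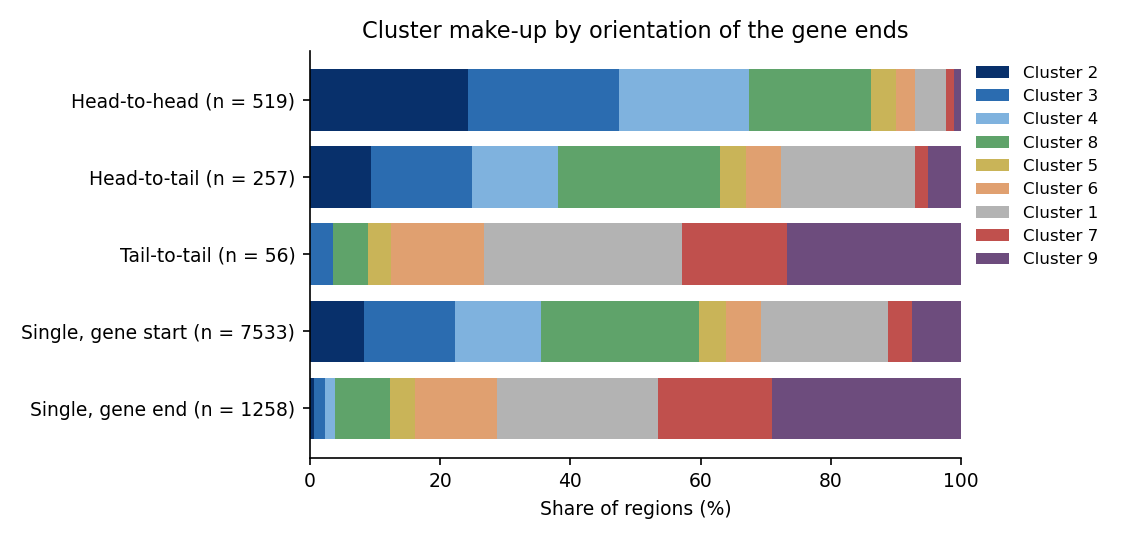
Cluster make-up (horizontal axis, percent of regions, adding up to 100) of head-to-head, head-to-tail and tail-to-tail shared regions and of single regions at a gene start or a gene end. Clusters 2, 3 and 4, in blue, fill 67.4% of the head-to-head bar, 38.1% of the head-to-tail bar and 35.5% of the single-start bar.

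Within the shared regions, the closer the genes lay, the larger was the share of clusters 2, 3 and 4. The gap between the facing limits had a median of 171 bp (quartiles 67 and 433.5 bp) and a largest value of 1732 bp. The share was 59.8% of 604 regions with gaps under 200 bp, 51.3% of 265 with gaps of 200 to 500 bp, 37.8% of 196 with gaps of 500 bp to 1 kb and 23.9% of 46 with wider gaps. Orientation changed along this order too, since median gaps were 99 bp for head-to-head, 419 bp for head-to-tail and 269 bp for tail-to-tail regions. Among head-to-head regions alone the share was 68.0% under 200 bp, 73.3% at 200 to 500 bp, 55.2% at 500 bp to 1 kb (16 of 29) and 27.3% beyond (3 of 11). Among head-to-tail regions it stayed between 37.0% and 39.1% in all 4 gap classes.

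Seen from the midpoint of the region, the distance to the second gene gave a graded order that ended near the 1 kb limit of the rule. Regions with a second gene within 250 bp of the midpoint were 65.9% in clusters 2, 3 and 4 (n = 434), and the share went down to 54.8% at 250 to 500 bp, 41.7% at 500 to 750 bp and 29.5% at 750 bp to 1 kb (n = 190). Just outside the limit, single regions with a second gene at 1 to 1.25 kb had 26.5% (n = 166), and those farther away had 26.3% to 30.8%. The last bin inside and the first outside had overlapping binomial intervals, 23.1 to 36.5 and 20.0 to 33.9. Cluster 1 went the other way, from 4.84% under 250 bp to 17.4% at 750 bp to 1 kb. These are descriptions of the members, with no test. The bins pool all orientations, and the mix of orientations in each bin was not counted. A change of that mix with distance cannot be told apart from a change of the shares within an orientation.

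**Figure D3:**
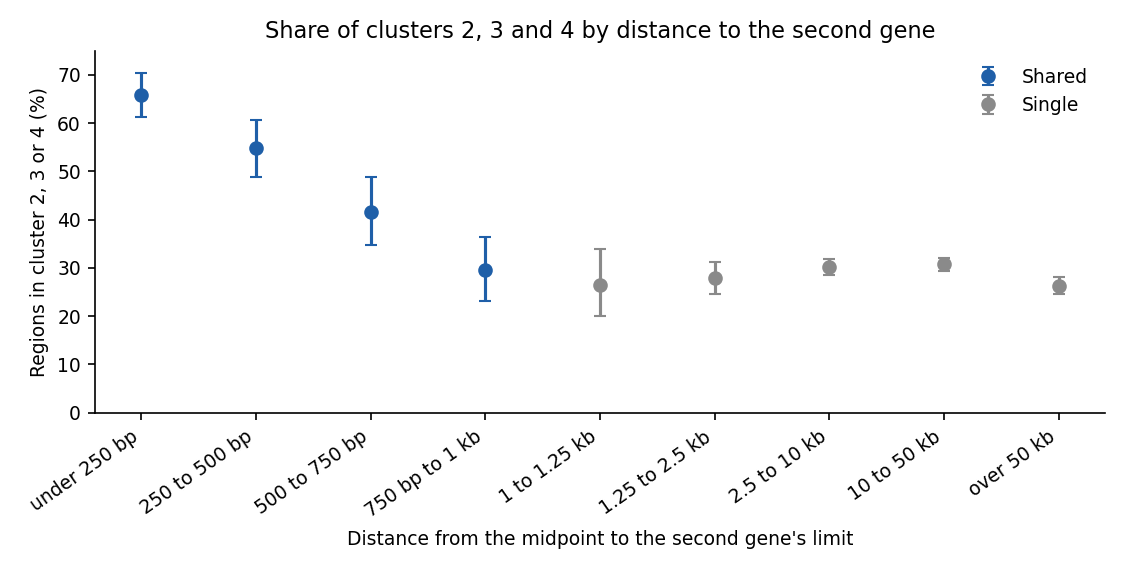
Share of regions in cluster 2, 3 or 4 (vertical axis, percent) by distance from the region's midpoint to the limit of the second nearest gene, for shared regions in blue and single regions in grey. Points are shares pooled over all orientations and bars exact 95% binomial intervals, which cover counting error only. The shares step down from 65.9% to 29.5% inside 1 kb and lie between 26.3% and 30.8% outside it.

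Shared regions were also wider. Their median width was 1225 bp against 1015 bp for single regions, a mean difference of autosome medians of 210.6 ± 151.7 bp, larger on 18 of 19 (permutation p = 0.00015). Head-to-head regions had a median of 1352 bp, single starts 1089 bp, larger on all 18 autosomes by 281 ± 153 bp (permutation p = 6e-05). Head-to-tail regions had a median of 1033 bp, and tail-to-tail regions, at 404 bp, were close to the 438.5 bp of single gene ends. The width difference between head-to-head and head-to-tail regions, 192.6 ± 566.8 bp and larger on 14 of 18 autosomes, did not pass (permutation p = 0.258). Within a cluster, shared regions were wider in clusters 2, 4, 5 and 6, and the other 5 did not pass. The differences were 215 ± 276, 206 ± 296, 631 ± 855 and 545 ± 749 bp (SD, all at permutation p = 0.0171). Clusters 5 and 6 had only 38 and 52 shared regions, so their autosome medians rest on few regions. In cluster 5 the medians over all autosomes were 1184.5 bp for shared and 856.5 bp for single regions. The distance to the nearest other region, 5105 bp against 5823 bp at the median, did not pass (permutation p = 0.577). No regions of the table lay under 1001 bp apart, a spacing that limits how many regions can lie near a pair of close gene ends. The width difference was 136 bp with a window of 2.5 kb, 403 bp for regions overlapping the limits and 354 bp with all annotated genes, and it passed in each.

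The region usually covered the whole intergenic stretch when genes met at their starts. Of head-to-head regions, 506 of 519 (97.5%) reached over both facing limits, against 131 of 257 head-to-tail regions (51.0%) and 8 of 56 tail-to-tail regions (14.3%). The midpoint itself lay between the genes in 29.3%, 30.0% and 33.9% of them. In the same order, median gaps were 99, 419 and 269 bp and median widths 1352, 1033 and 404 bp. Coverage was not compared at equal gap or width.

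Counted from the genes instead of the regions, close head-to-head neighbours nearly always carried a shared region. Of 2999 pairs of neighbouring genes with facing limits within 2 kb, 1138 (37.9%) had one, among them 530 of 626 head-to-head pairs (84.7%), 263 of 820 head-to-tail pairs (32.1%) and 57 of 667 tail-to-tail pairs (8.55%). With gaps under 200 bp the counts were 382 of 405 head-to-head pairs (94.3%), 63 of 104 head-to-tail pairs (60.6%) and 25 of 146 tail-to-tail pairs (17.1%). At 1 to 2 kb they were 21.3%, 4.30% and 4.08%, a range of gaps where the rule's window can hold both limits only near its edge. In 15 of the 405 closest head-to-head pairs no region lay at any end of either gene.

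**Figure D4:**
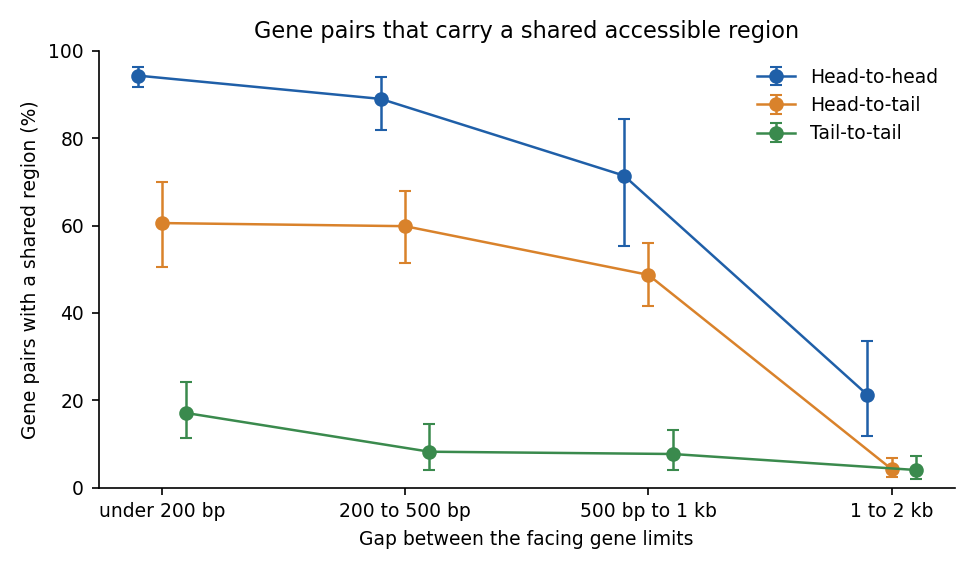
Share of neighbouring gene pairs that carry a shared region (vertical axis, percent) by the gap between their facing limits, for head-to-head, head-to-tail and tail-to-tail pairs. Points are pooled shares with exact 95% binomial intervals; below 200 bp they stand at 94.3%, 60.6% and 17.1%.

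Most genes with a shared region had no further region that was not shared. Of the 2150 genes, 443 (20.6%) had a further region at a gene end that was not shared. Whether it lay at the same end as the shared region or at the other end was not read. Those 443 regions were 27.8% in clusters 2, 3 and 4 and 45.1% in clusters 1, 7 and 9, with a median width of 853 bp. In all, 100 genes had 2 shared regions. Among them was Rps18, a protein of the small ribosomal subunit, with a cluster 4 region toward B3galt4 and a cluster 3 region toward Vps52.

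Genes of DNA repair and of mitochondria were frequent at shared regions. Of all 20665 protein-coding genes 10.4% had a shared region, and of the 12914 with any region at a gene end 16.6%, and each list below is a count to be read beside these. Cluster counts are to be read beside the 52.4% of all shared regions, and the 67.4% of head-to-head regions, that were in clusters 2, 3 and 4, and the 21.3% of shared regions in cluster 8. Of 22 genes known for divergent starts 12 had one, at 8 regions of which 6 were in clusters 2, 3 and 4, but that list was drawn up for this arrangement. Of 53 DNA repair genes 19 had one (35.8%), and 16 of their 20 regions were in clusters 2, 3 and 4. The cluster 2 regions included those of Atm with Npat (chr9:53536054-53537816, 1763 bp, gap 60 bp), Brca1, of homologous recombination, with the autophagy receptor Nbr1 (chr11:101551465-101553244, 1780 bp, gap 151 bp), and Prkdc, the DNA-dependent protein kinase, with the helicase subunit Mcm4 (chr16:15636724-15638119, 1396 bp, gap 43 bp). Chek2, a checkpoint kinase, shared a 2047 bp region of cluster 4 with Hscb, an iron-sulfur cochaperone, across a gap of 6 bp. The exceptions, named after their values were seen, were Fancd2 with Emc3 (cluster 8, 547 bp), Xrcc1 with Pinlyp (cluster 1), and the narrow tail-to-tail regions of Xrcc6 with Snu13 (cluster 9, 393 bp) and of Apex1 with Pip4p1 (cluster 6, 200 bp). Apex1, the AP endonuclease, had its start at a second shared region, head-to-head with Osgep in cluster 4.

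Mitochondrial genes followed with 25 of 78 proteins of the mitochondrial ribosome (32.1%) and 21 of 66 genes of oxidative phosphorylation (31.8%). Of 24 mitochondrial ribosome regions 15 were in clusters 2, 3 and 4 and 5 in cluster 8, and of 21 oxidative phosphorylation regions 11 were in clusters 2, 3 and 4, 5 in cluster 8 and 3 in cluster 5. Ndufa4 with Phf14 and Ndufa5 with Asb15 were in cluster 3, Ndufa8 with Morn5 in cluster 8 and Ndufs1 with Eef1b2 in cluster 5, all 3 Ndufa genes and Ndufs1 being tied to the respiratory chain. Pairs joined the lists to each other: Mrpl32, of the mitochondrial ribosome, and Psma2, a core proteasome subunit, shared a cluster 4 region of 835 bp with a gap of 204 bp, and Mrps12 and Sars2 shared one of cluster 3 with 1582 bp and a gap of 135 bp.

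The other housekeeping lists had shares from 18.8% to 31.7%. Shared regions were found for 13 of 41 chaperones (31.7%), 9 of 31 proteasome subunits (29.0%), 10 of 37 tRNA synthetases (27%), 16 of 64 genes of the transcription machinery (25%) and 13 of 69 proteins of the cytoplasmic ribosome (18.8%). Chaperone regions were in clusters 2, 3 and 4 in 10 of 12 cases and 6 of them were in cluster 2, among them Hsp90b1, the HSP90 of the endoplasmic reticulum, with Ttc41 and Hspa14 with Cdnf. The heat-inducible Hspa1a and its neighbour Hspa1l were apart from these, in cluster 8 with 905 bp and a gap of 546 bp. Among synthetases Ears2 with Ubfd1, whose limits touch, was in cluster 2, Fars2 with Lyrm4 and Iars2 with Bpnt1 were in cluster 3, and Kars with Terf2ip was in cluster 1. In the cytoplasmic ribosome Rpl4 had a shared region at each end, in cluster 3 toward Zwilch and in cluster 4 toward Snapc5, while Rpl7a with Med22 was in cluster 4 and Rpl9 with Lias in cluster 3.

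Replication and cell cycle genes had a share close to that of all genes, 5 of 50 (10.0%), and all 5 regions were in clusters 2 and 3. They were those of Mcm4 and of Pcna, the polymerase clamp, with Cds2 (chr2:132252308-132253585, gap 157 bp) in cluster 2, and of Orc6 with Vps35, Pole with Pxmp2 and Pold1 with Nr1h2 in cluster 3. The last, chosen after its values were seen, was head-to-tail. Of 16 regions of the transcription machinery 9 were in clusters 2, 3 and 4, such as Polr2b with Noa1 in cluster 3 and Polr2l with Tspan4 in cluster 4, and 4 were in cluster 8, such as Polr2f with 1700088E04Rik.

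Replication-dependent histone genes, which lie in dense clusters, came next to the divergent list in share. Of 62 matched genes 32 (51.6%) lay at 15 shared regions, of which 7 were in cluster 3 and 3 in cluster 2. The head-to-head pair H2bc7 and H2ac7 had 1 of the 4 widest shared regions, 7402 bp in cluster 3. H2ac4 with H3c2 was in cluster 5, H2bc6 with H1f4 in cluster 4 and the testis histones H2bc1 and H2ac1 in cluster 6. The genes are similar copies. Whether reads were split between them was not tested, and the counts for this family are uncertain.

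Few genes of the cell identity lists had a shared region, and the counts are small. None of 30 naive pluripotency genes had one, although 21 had a region at a gene end, so that a count of 0 of 21 allows a share of up to 14.3%. Of 65 developmental transcription factors 1 did, Hoxa5, with Hoxa6 head-to-tail in a 2639 bp region of cluster 1. Of 29 neuronal genes 1 did, Slc17a7, a glutamate transporter, tail-to-tail with Gfy in a 272 bp region of cluster 9, and of 29 fibroblast markers 1 did, Pdgfrb. A region at either gene end was held by 19 of 29 feeder fibroblast markers, by 21 of 30 naive pluripotency genes and by 12914 of all 20665 protein-coding genes. For neuronal genes this was 20 of 29. With 1 gene at a shared region in each, the neuronal and fibroblast lists are too small to be set apart from the 16.6% of all genes with a gene-end region.

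The pairs with the smallest gaps show how different the members of 1 arrangement were. Ears2 with Ubfd1 (cluster 2), Capza1, an actin capping subunit, with St7l (cluster 3) and Tcta with the GTPase Rhoa (cluster 4) each met head-to-head with touching limits, in regions of 1662, 1659 and 1250 bp. Head-to-head pairs only a few bases apart in other clusters were Parpbp with Nup37 (cluster 5, gap 6 bp, 640 bp wide), Gnl3, a nucleolar GTPase of stem cells, with Pbrm1, a subunit of the PBAF remodeller (cluster 6, gap 6 bp, 1910 bp), the zinc-finger genes Zfp944 with Zfp758 (cluster 7, gap 1 bp, 1326 bp) and Kars with Terf2ip (cluster 1, gap 4 bp, 2506 bp). In cluster 9 the closest were Vill with Plcd1, a phospholipase, tail-to-tail over 274 bp, and Srm, spermidine synthase, with Masp2. The widest shared region of all, 8280 bp in cluster 6, ran over Zfp36l1, an mRNA decay factor, and Gm52006. The third widest, 5745 bp in cluster 1, covered all of Rpl10a, its start included, and the end of Tead3. Adam15 with Dcst1 and H2ac21 with H2ac20 were among the regions near 3 genes.

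Head-to-head promoters differed from single-start promoters in CpG and in 3 of 6 motifs. Over the 300-base windows of 1038 genes in 519 pairs and of 7529 genes with a single region at their start, GC content was 61.8% and 61.6%, a difference of 0.271 ± 1.85 points that did not pass (all 16457 promoters 56.2%, permutation p = 0.547). The CpG observed-to-expected ratio, which counts CpG against what the C and G content would give, was 0.830 and 0.715 (all promoters 0.552), higher on all 18 autosomes by 0.115 ± 0.0373 (permutation p = 4e-05, adjusted over 8 features). An ETS core was found in 28.4% against 15.2% of windows (all 12.3%), a mean difference of 13.9 ± 11.1 points, higher on 17 of 18 (permutation p = 4e-05). A YY1 core was in 9.54% against 3.72% (all 3.21%), higher on 15 by 5.92 ± 5.30 points (permutation p = 0.000587), and a CCAAT box in 44.9% against 39.1% (all 39.1%), higher on 14 by 7.06 ± 9.36 points (permutation p = 0.0109). GC boxes (68.3% against 66.9%, all 47.3%), NRF1 cores (6.94% against 5.39%, all 3.66%) and TATA boxes (5.11% against 7.01%, all 13.5%) did not pass (permutation p = 0.547, 0.329 and 0.293).

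The distance between the starts moved with these values. Starts of a pair were 191 bp apart at the median (quartiles 93 and 437 bp), and in 397 of 519 pairs (76.5%) the windows shared bases, so a motif in the shared stretch was counted for both genes. The largest distance was 614791 bp, while gaps between facing limits of head-to-head regions ended at 1709 bp. A listed start can thus lie far from the gene limit, with its window away from the shared region. Starts 300 bp or more apart include such cases, and their number was not counted. With only the left gene of each pair, an alternative added after the data were seen, the ETS difference was 13.3 points (permutation p = 0.00016) and the YY1 difference 5.54 points (permutation p = 0.000267). For the 370 genes whose starts lay 300 bp or more apart, ETS was in 20.5% of windows and YY1 in 6.49%, and neither passed (differences 3.64 and 3.36 points, permutation p = 0.256 and 0.242). The CpG difference in those genes was 0.0243 (permutation p = 0.293), whereas CCAAT stayed higher by 9.54 points (permutation p = 0.0188). For the 668 genes with closer starts, an added alternative, ETS was in 32.8%, YY1 in 11.2% and CCAAT in 44.6%.

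**Figure D5:**
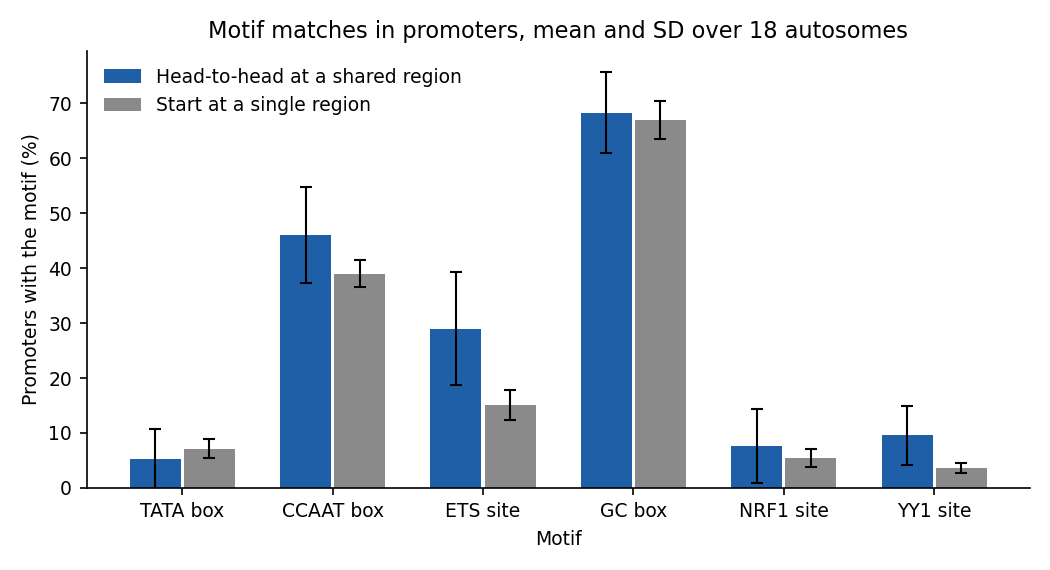
Share of 300-base promoter windows with at least 1 match to each of 6 motifs (vertical axis, percent), for head-to-head genes at shared regions in blue and genes with a single region at their start in grey. Bars are means and lines SD over 18 autosomes. The ETS and YY1 bars differ most in proportion, with pooled shares of 28.4% against 15.2% and 9.54% against 3.72%.

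The motifs were spread unevenly over the clusters, as a description with no test. Among head-to-head genes a CCAAT box was in 57.1% of windows in cluster 2 (252 genes), 50.5% in cluster 4 (208 genes), 39.2% in cluster 3 (240 genes) and 34% in cluster 8 (194 genes). Single-start genes showed the same order, with 58.9%, 46.5%, 44.4% and 34%. Within cluster 2 the CCAAT share of head-to-head genes was therefore no higher than that of single-start genes. ETS cores were more frequent in head-to-head than in single-start windows in each of these 4 clusters, 25% against 19.8% in cluster 2, 33.3% against 21.5% in cluster 3, 26.4% against 20.3% in cluster 4 and 28.4% against 16.4% in cluster 8.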

How the data were processed

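ACC-seq libraries of R1 cells were processed by the authors on mm10 with Bowtie2 2.3.3.1, cutadapt 1.18, SAMtools 1.6 and Picard, per the submitters' processing notes. The deposited table gives each region's position and a cluster name, and no signal. Calling and clustering of the regions were not given in the sources used here, nor was depth, so no precision per library can be stated. Positions were counted from 1.

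Gene limits, strands and 300-base promoter windows came from RefSeq (GRCm38.p6). A gene's strand was that of its listed starts where all of them agreed, and was otherwise left unmatched. Its window was that of the listed start nearest to the limit. Motifs were searched on both strands. Shares, median widths, distances and promoter features were differenced within autosomes, and signs of the differences were permuted 100000 times (two-sided, smallest possible p 1e-05). Adjustment was by Benjamini-Hochberg within each family (9 clusters in each comparison of cluster shares, 8 promoter features, 6 medians over all clusters and 9 widths within clusters), with a threshold of 0.05. Binomial intervals are exact (Clopper-Pearson, 95%), and the limit for a count of 0 is 3 counts. Intervals and limits cover counting error only.

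The regions, the 15 gene lists (726 of 734 entries matched, 1 by synonym) and the grouping of clusters 2, 3 and 4 and of 1, 7 and 9 were chosen with earlier results of these data known. Named by rule were the first 4 members of each list with a shared region, the 2 smallest gaps in each cluster, and the 4 widest regions and the 4 with most genes. Other names followed after values were seen. A result that this rule would name is not reported here. Further settings are given in the closing section. The test of cluster shares between shared and single regions was tried on cluster names permuted within autosomes, with and without a planted excess. The other tests were not tried in this way. Computation used SciPy 1.17.1, pandas 2.3.3 and numpy 2.4.6 in Python 3.11.15, and drawing matplotlib 3.10.9.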

Additional observations from a re-analysis of the deposited data

How the results depend on the processing

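No paired analysis was possible because the table has no value per library, so a replicate block, or leaving out a replicate, had nothing to run on. The differences for clusters 1, 2, 3, 4, 7 and 9 kept their direction and passed in all 10 alternatives, and that for width in all 8. Their sizes moved by over 1.5 times in some of these, as given beside the results. Among the 10, the Mantel-Haenszel comparisons over autosomes and over deciles of width took regions and not autosomes as units. Passing in them says nothing about spread between autosomes. The differences for clusters 5, 6 and 8 did not pass as reported and varied. For cluster 5 the difference was 0.0699 points with a window of 2.5 kb and 0.125 with all annotated genes. For cluster 6 it was -2.74 with all annotated genes, -1.88 against single regions with another gene within 10 kb and -2.45 for gene starts only, all of which passed (permutation p = 0.00297, 0.0174 and 0.00191). For cluster 8 it was 0.553 with 2.5 kb, 0.909 with all annotated genes and 0.285 against single regions with another gene within 10 kb, none of which passed, and -4.52 for regions overlapping the limits, -4.37 with 1 region per 50 kb and -5.66 for gene starts only, all of which passed (permutation p = 0.0129, 0.0338 and 0.00586). The distance to the nearest other region differed by -1012 bp with 2.5 kb (permutation p = 0.00034), by 1579 bp against single regions with another gene within 10 kb (permutation p = 0.00015) and by 669 bp for gene starts only. These distance p-values are not adjusted, and the settings were added after the data were seen. In promoters with starts 300 bp or more apart the GC difference was -2.38 points (permutation p = 0.00976) and the GC box difference -4.49, and CpG (0.0243), ETS (3.64) and YY1 (3.36) no longer passed; with closer starts the GC difference was 1.78 and passed (permutation p = 0.00676). The cause was not tested.

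With each autosome left out in turn, ranges were -11.48 to -10.42 points for cluster 1, 9.70 to 11.87 for cluster 2, 6.81 to 8.10 for cluster 3, 4.60 to 6.12 for cluster 4, -1.20 to -0.557 for cluster 5, -1.39 to -0.820 for cluster 6, -3.74 to -3.20 for cluster 7, -1.33 to 0.346 for cluster 8, -7.13 to -6.65 for cluster 9, 196.6 to 231.3 bp for width and -401.6 to -12.0 bp for the nearest region. Cluster 6 passed without autosome 9 or 12, and cluster 8 changed sign without autosome 13. The number of shared regions was 717 with a window of 500 bp, 2356 with 2.5 kb, 949 when the region had to overlap the limits and 2037 with all annotated genes.

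The main limits are that cluster names stand in for accessibility, that strand was missing for a gene in 279 shared regions, and that autosomes are not independent cultures.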

Other observations

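Head-to-head regions were more isolated than head-to-tail regions. The nearest other region was 6874 bp away at the median for head-to-head and 4365 bp for head-to-tail regions, a mean difference of autosome medians of 2173 ± 2439 bp, larger on 15 of 18 autosomes (permutation p = 0.00458). Single regions at a start had a median of 6433 bp, and head-to-head regions did not differ from them past the threshold (permutation p = 0.282).

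Regions near genes that overlap each other, which the comparisons left out, were 46.4% in clusters 2, 3 and 4 (254 of 547) and 25.8% in clusters 1, 7 and 9, with a median width of 1250 bp. These values lie between those of single and of shared regions for the clusters and above both for width, and their difference was not tested. Shared regions with a gene of unmatched strand were 47.3% in clusters 2, 3 and 4, with a median width of 1173 bp.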
